A study of Rattus norvegicus with 8 samples.

Results

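The 10 genes described here encode receptors for extracellular nucleotides: the ligand-gated P2X channels P2rx3, P2rx4, P2rx5, P2rx6 and P2rx7, and the G-protein-coupled P2Y receptors P2ry1, P2ry6, P2ry12, P2ry13 and P2ry14. They were read by gene symbol from a count table of 17337 genes. All 10 were listed, and 9 of them passed the filter on low counts, which kept 12014 genes. The 10 were selected from the family with their levels in METH and saline rats already known, so their differences between these groups are given as descriptions and without a p-value. They were part of the comparison over all genes tested, and where a member is said to meet its limits, this describes the selection.

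Cells release ATP, ADP, UDP and UDP-glucose, and the P2 receptors on neighbouring cells read these nucleotides as signals. P2X receptors are trimeric cation channels opened by ATP, whereas P2Y receptors act through G proteins and differ in the nucleotide they prefer. In the brain, P2RY12 directs the processes of resting microglia toward sites of ATP release, P2RX4 and P2RX7 are studied for their part in microglial activation, and ectoenzymes at the cell surface end the signal by converting ATP to adenosine.

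Polyadenylated RNA was sequenced from the striatum of 8 wild-type male Sprague-Dawley rats. In the METH group, 4 rats had self-administered methamphetamine at 0.05 mg/kg per infusion through a jugular catheter for 2 h per day over 16 days, and the 4 rats of the saline group took saline infusions in place of the drug. All had first been trained to press a lever for food, all carried the catheter, and all were killed under ketamine and xylazine. Only rats that reached a set number of food pellets received the catheter. According to the paper, more rats than these began self-administration, with more in the METH group. Those with a stable lever response over the last days, 4 in each group, were chosen for plasma sampling. The paper does not say outright that the sequenced rats were these. The age of the rats is not stated in the sources used here.

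The total count per rat ranged from 18135939 to 21211920, and 3 counts, taken as the smallest detected number, corresponded to 0.142 to 0.169 CPM, the count per 1000000 after TMM scaling of library sizes. On the first principal component METH rat 3 stood apart, at 39.5, while the other METH rats were between 0.257 and 5.29 and the saline rats between -24.6 and -4.17. The difference between the groups is therefore also given without METH rat 3 for each receptor tested. The labelled tissue was checked against Ppp1r1b, Drd1, Drd2, Penk, Tac1, Rgs9, Gad1 and Snap25, which together reached 12950 to 13740 CPM in saline rats and 13820 to 17030 CPM in METH rats. The labels name no batch. Over all genes tested, 62 were called between METH and saline rats, 54 higher and 8 lower in METH rats, where a call required a Benjamini-Hochberg adjusted p (FDR) under 0.05 in the edgeR quasi-likelihood F-test and an average log2 CPM over 1. These calls were 0.516% of the genes tested in either direction, 0.449% for higher genes and 0.0666% for lower genes.

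P2rx4 and P2rx7 lie next to each other on the same chromosome, and P2ry12, P2ry13 and P2ry14 lie in a second cluster. The bases before the annotated start of P2rx4, P2rx7 and P2ry13 are shown because P2rx4 was the member whose groups of rats were fully apart, P2rx7 is its neighbour and P2ry13 is a microglial receptor of the other cluster. Capitals mark CpG dinucleotides. The sequences are those of RefSeq on assembly GRCr8, 5′ to 3′ on the strand of the gene, at chr12:39523090-39523339 (minus strand), chr12:39594923-39595172 (minus strand) and chr2:145622785-145623034 (minus strand), in that order.
P2rx4: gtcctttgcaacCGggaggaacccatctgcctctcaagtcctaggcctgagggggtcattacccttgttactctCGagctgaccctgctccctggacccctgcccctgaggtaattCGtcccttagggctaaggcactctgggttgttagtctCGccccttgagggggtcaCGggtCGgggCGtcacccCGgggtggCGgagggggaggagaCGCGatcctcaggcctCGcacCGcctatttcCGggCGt
P2rx7: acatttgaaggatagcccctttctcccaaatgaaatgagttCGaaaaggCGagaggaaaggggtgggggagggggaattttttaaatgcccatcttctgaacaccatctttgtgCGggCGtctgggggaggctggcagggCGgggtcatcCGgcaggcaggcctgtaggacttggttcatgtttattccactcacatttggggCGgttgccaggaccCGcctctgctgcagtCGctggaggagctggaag
P2ry13: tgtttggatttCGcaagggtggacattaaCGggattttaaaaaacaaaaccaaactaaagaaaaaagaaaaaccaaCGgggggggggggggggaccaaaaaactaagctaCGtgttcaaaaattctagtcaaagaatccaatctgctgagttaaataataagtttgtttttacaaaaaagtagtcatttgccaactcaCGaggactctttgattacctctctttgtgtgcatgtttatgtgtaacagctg

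Over these 250 bases P2rx4 held 15 CpG dinucleotides, more than 74.2% of the 33469 promoters of the same length, P2rx7 held 9 and P2ry13 held 5, against a median of 5 over all promoters. The G+C content was 64.0% before P2rx4, 56.0% before P2rx7 and 37.6% before P2ry13, with a median of 51.2% over all promoters. A window of 300 bases, 250 before and 50 after the start, was listed for 7 of the 10 members (P2rx3, which had a pair of windows, P2rx4, P2rx6, P2rx7, P2ry1, P2ry13 and P2ry14) and was searched on both strands for the binding motifs of PU.1 (GAGGAAGT, in 2.42% of all promoters), of the joint PU.1 and IRF element (in 2.94%), of CREB (TGACGTCA, in 1.83%) and of the glucocorticoid receptor (in 0.439%). The first pair of motifs can overlap. None was found in the windows of the 7 genes, which says only that these letters are not there.

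**Figure D1:**
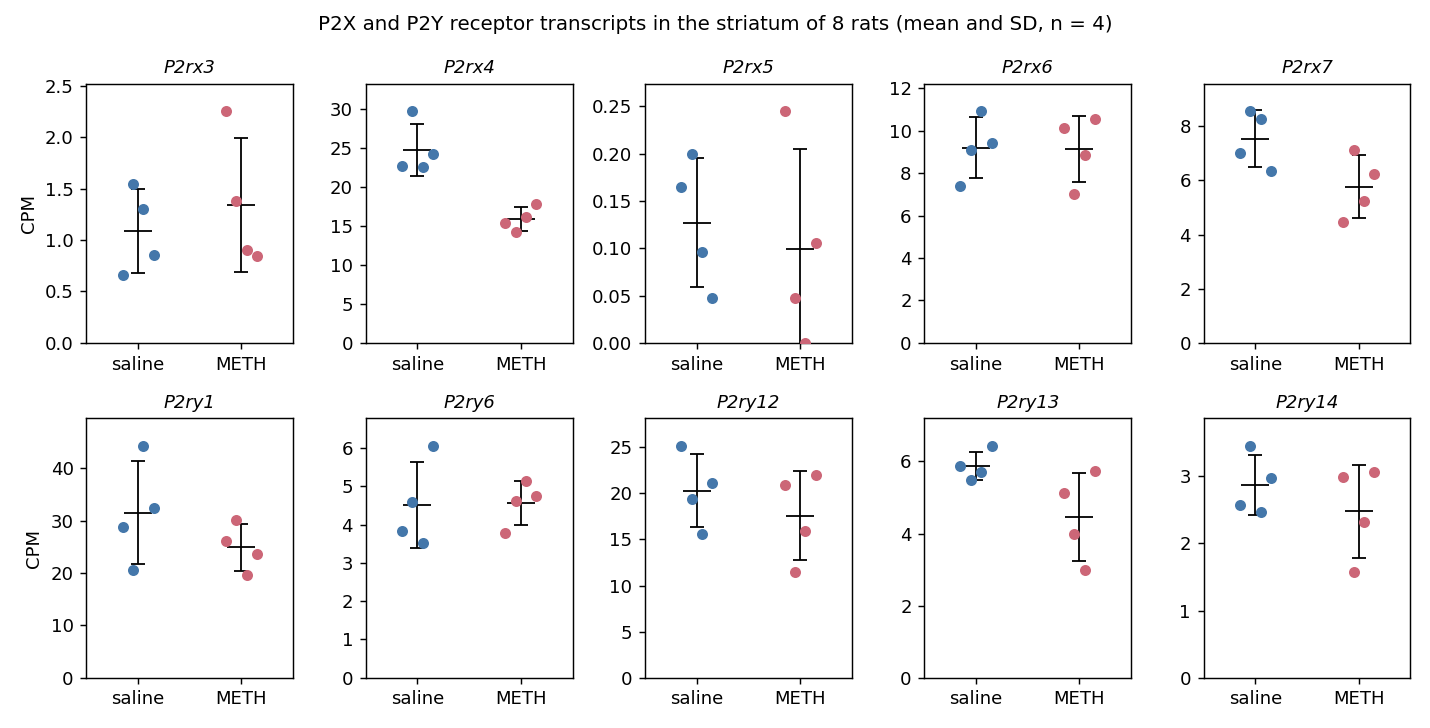
Level of each receptor transcript in CPM (y axis, from 0, a separate scale for each gene) in the 4 saline rats (blue) and the 4 METH rats (red), with the mean and SD in black. Only for P2rx4 were all METH rats (14.2 to 17.8 CPM) below all saline rats (22.6 to 29.7 CPM), and for the other 9 receptors the groups overlapped.

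Among the P2X channels, P2rx4 encodes a highly calcium-permeable channel found in neurons and microglia, where much of it is held in lysosomes. Its raw counts were 415, 595, 467 and 513 in saline rats 1 to 4 and 316, 299, 287 and 338 in METH rats 1 to 4. Scaled for library size, these were 22.8, 29.7, 22.6 and 24.2 CPM in saline rats and 15.5, 14.2, 16.2 and 17.8 CPM in METH rats. The groups did not overlap, and the gap lay between METH rat 4 and saline rat 3. The mean was 24.8 ± 3.36 CPM in the saline group and 15.9 ± 1.498 CPM in the METH group (SD, n = 4 each). This is a log2 ratio of METH to saline (log2 fold change) of -0.64 with a standard error (SE) of 0.12, or 0.641 times the saline level. Of the 9 receptors tested, P2rx4 alone met the limits for a call, beside 0.516% of all genes tested (0.0666% called lower in METH rats). P2rx4 alone had groups that did not overlap, beside 6.39% of all genes tested without overlap (3.75% higher and 2.65% lower in METH rats). Because P2rx4 was among the members chosen on this contrast, these counts describe the selection.

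The log2 ratio of P2rx4 lay between -0.70 and -0.54 when each rat was left out in turn, and it was -0.65 without METH rat 3. It no longer met the limits for a call without saline rat 2 (-0.54), saline rat 4 (-0.65), METH rat 1 (-0.63), METH rat 2 (-0.59) or METH rat 3, nor with the rat number as a replicate block (-0.64).

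P2rx7, the channel that forms a large pore at high ATP and gates release of interleukin-1β, had raw counts of 128, 171, 171 and 134 in saline rats and 91, 150, 93 and 118 in METH rats. These were 7.02, 8.55, 8.26 and 6.33 CPM in saline rats against 4.45, 7.14, 5.25 and 6.22 CPM in METH rats. METH rats 1, 3 and 4 were below every saline rat, and METH rat 2 was above saline rats 1 and 4. For P2rx7 the log2 ratio was -0.39 with an SE of 0.19 (-0.34 without METH rat 3).

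P2rx6, a subunit that forms channels mainly together with other P2X subunits, was at 7.41, 9.10, 10.9 and 9.40 CPM in saline rats and at 10.1, 7.04, 8.86 and 10.5 CPM in METH rats. Its groups overlapped over nearly the whole range. Its log2 ratio was -0.01 with an SE of 0.17, and its sign changed when a rat was left out (-0.10 to 0.10, and 0.003 without METH rat 3).

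P2rx3, best known from sensory neurons, was close to the lower end of what the libraries can show, with counts of 12, 31, 27 and 18 in saline rats and 46, 29, 16 and 16 in METH rats. METH rat 1 had the highest count and saline rat 1 the lowest. This gave a log2 ratio of 0.30 with an SE of 0.43, and it became -0.06 without METH rat 1 and 0.45 without METH rat 3. P2rx5 had 3, 4, 2 and 1 counts in saline rats and 5, 1, 0 and 2 in METH rats. It was removed by the filter, no fold is given for it, and a difference was not detectable at this depth.

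Among the P2Y receptors, P2ry1 is an ADP receptor coupled to Gq and found in neurons and astrocytes. It was at 28.8, 20.5, 44.2 and 32.5 CPM in saline rats and at 26.2, 30.2, 19.6 and 23.6 CPM in METH rats. Saline rat 3 was the highest and METH rat 3 the lowest, and saline rats 1 and 2 lay within the METH range. The mean was 31.5 ± 9.84 CPM in the saline group and 24.9 ± 4.46 CPM in the METH group (SD, n = 4 each). A log2 ratio of -0.34 was obtained, with an SE of 0.19, and it was -0.24 without METH rat 3 and -0.13 without saline rat 3.

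P2ry12, the Gi-coupled ADP receptor used as a marker of resting microglia, was at 25.1, 19.3, 15.5 and 21.2 CPM in saline rats. It was at 20.9, 11.5, 15.9 and 22.0 CPM in METH rats, with METH rat 2 below every saline rat and the other METH rats inside the saline range. Between the groups the log2 ratio was -0.20 with an SE of 0.19, against -0.05 without METH rat 2 and -0.16 without METH rat 3.

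P2ry13, a second Gi-coupled ADP receptor of microglia, was at 5.87, 5.50, 5.70 and 6.42 CPM in saline rats, which lay close together (SD 0.398 CPM). The METH rats were further apart, at 5.14, 4.00, 2.99 and 5.74 CPM (SD 1.22 CPM), and only METH rat 4 reached the saline range. For P2ry13 the log2 ratio was -0.39 with an SE of 0.22, and -0.24 without METH rat 3.

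P2ry14, which responds to UDP-glucose, was at 2.58, 3.45, 2.46 and 2.98 CPM in saline rats and at 2.98, 1.57, 2.31 and 3.06 CPM in METH rats. As for P2ry12, METH rat 2 was the lowest of the 8 rats. P2ry14 had a log2 ratio of -0.21 with an SE of 0.28, against -0.04 without METH rat 2 and -0.18 without METH rat 3.

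P2ry6, the UDP receptor linked to uptake of debris by microglia, was at 3.84, 4.60, 3.52 and 6.05 CPM in saline rats and at 3.77, 4.62, 5.14 and 4.74 CPM in METH rats. Saline rat 4 was the highest. P2ry6 had a log2 ratio of 0.02 with an SE of 0.22. It changed sign when a rat was left out (-0.08 to 0.19, and -0.04 without METH rat 3) and when counts were scaled by library total (-0.02).

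**Figure D2:**
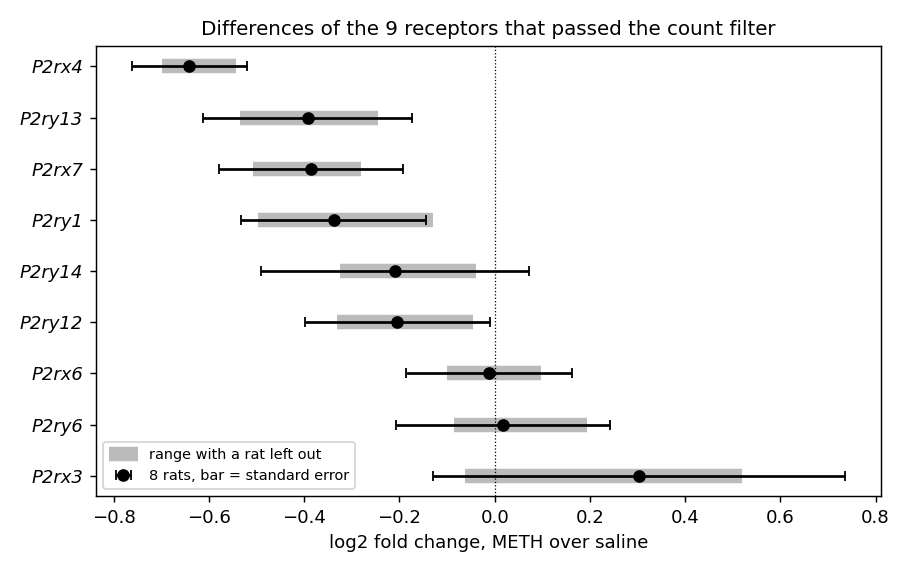
Log2 ratio of METH over saline (x axis) for the 9 receptors that passed the filter, from P2rx4 at the top (-0.64) to P2rx3 at the bottom (0.30). Points and thin bars give the estimate from 8 rats and its standard error, and grey bars the range when each rat is left out in turn, which spans 0 for P2rx3, P2rx6 and P2ry6.

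Over the 9 receptors tested, 7 had a log2 ratio below 0 and the median was -0.21, while 51.4% of all genes tested were below 0 with a median of -0.01. These figures follow from a list chosen with the values known and are given as a description.

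The receptors differed in how much they varied between rats of the same group. The SD of log2 CPM within groups was 0.37 for P2ry1, 0.36 for P2ry12, 0.34 for P2ry14, 0.56 for P2rx3, 0.16 for P2rx4 and between 0.24 and 0.30 for P2rx6, P2rx7, P2ry6 and P2ry13, against a median of 0.18 over all genes tested. For P2ry1 the spread was 6.11 times, and for P2ry12 4.87 times, what counting error alone gives at their mean counts of 562.9 and 373.1. For the other receptors tested this ratio lay between 1.70 (P2ry14, mean count 52.9) and 2.28 (P2rx6).

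Genes that moved with each receptor from rat to rat were sought by the Pearson correlation of deviations from the group mean over the 8 rats, among 10975 other genes with a mean log2 CPM above 1, for the 8 receptors with at least 20 counts in every rat. P2ry1 was most like Gnal, which encodes the Golf subunit that couples dopamine and adenosine receptors to adenylyl cyclase in the striatum (r = 0.991), and Anxa7 (r = 0.989). Ier3 was among the genes most like P2rx4 (r = 0.962), and P2rx7 was most like Rims4 (r = 0.979) and Tbc1d2b (r = 0.966). P2ry12 was most like Oma1 (r = 0.991) and Neu3 (r = 0.983), and P2ry13 was most like Ddx52 (r = 0.988) and Zfp422 (r = 0.983). P2ry14 was most like Mycbp (r = 0.986) and Slc7a7 (r = 0.980), P2rx6 was most like Dedd (r = 0.973) and Mid1 (r = 0.965), and P2ry6 was most like Tigd3 (r = 0.967) and Dffb (r = 0.952). These are among the highest of 10975 values for each receptor over 8 rats that share the same libraries, and no p-value is attached.

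Microglial markers were measured beside the receptors because P2rx4, P2rx7, P2ry6, P2ry12 and P2ry13 are expressed by microglia. Of 20 markers, 19 were in the table and all 19 were tested. Of these, 2 were called lower in METH rats and 0 higher, beside 0.0666% and 0.449% of all genes, and 14 of the 19 had a log2 ratio below 0 (median -0.15). Mpeg1, which encodes the pore-forming protein perforin-2 of macrophages, was lower in all 4 METH rats than in any saline rat, with a log2 ratio of -0.79 (SE 0.11) and an edgeR FDR of 0.00343. Cx3cr1, the fractalkine receptor, had a log2 ratio of -0.73 (SE 0.14) and an edgeR FDR of 0.0408. The call of Cx3cr1 was lost with the replicate block and without saline rat 2, 3 or 4 or METH rat 1, 3 or 4, where the edgeR FDR was between 0.0569 and 0.144. The complement genes C1qa, C1qb and C1qc had log2 ratios of 0.11, 0.09 and 0.11 and were not called.

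The summed level of the 19 markers was 859.3 to 1028 CPM in saline rats and 799.0 to 917.6 CPM in METH rats, so the groups overlapped. Per 1000 CPM of these markers, P2rx4 was at 24.2, 28.9, 26.2 and 23.6 CPM in saline rats and at 17.2, 17.8, 19.4 and 19.4 CPM in METH rats, again without overlap. On this scale P2ry12 was at 18.1 to 26.8 CPM in saline rats and 14.4 to 24.0 CPM in METH rats, and P2ry13 at 5.35 to 6.63 CPM and 3.57 to 6.26 CPM. In RNA from whole tissue, fewer cells of a type and less RNA per cell cannot be told apart, and the part of microglia in the level of P2rx4 was not tested.

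**Figure D3:**
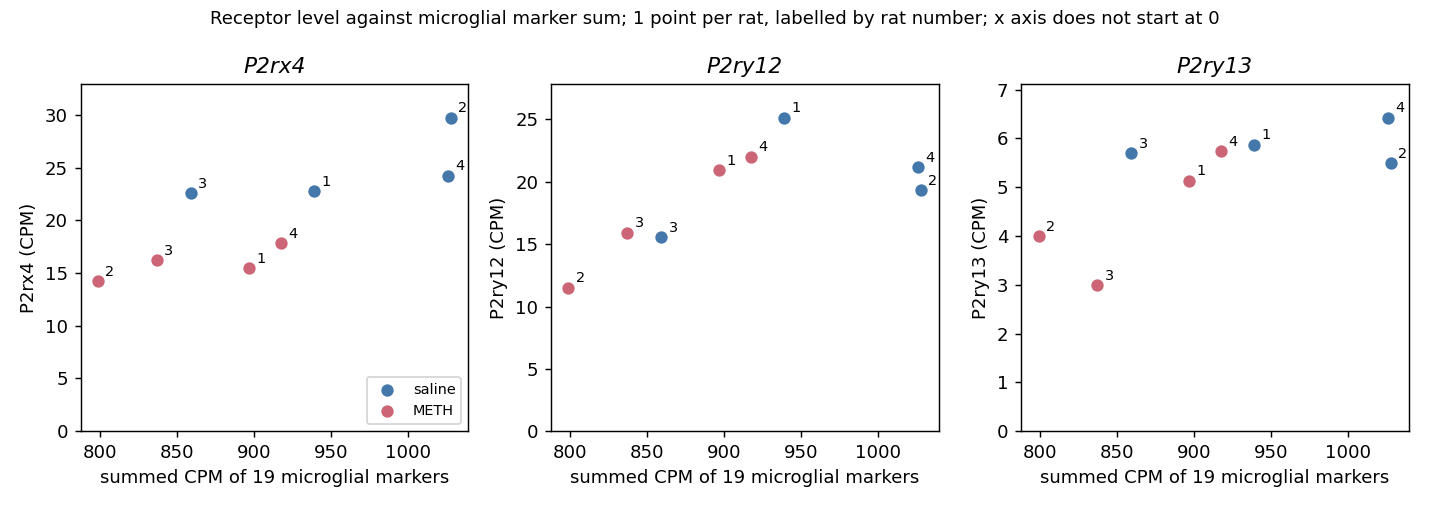
Level of P2rx4, P2ry12 and P2ry13 in CPM (y axes, from 0) against the summed CPM of 19 microglial markers (x axes, not from 0), with 1 point for each saline (blue) and METH (red) rat, labelled by rat number. The P2rx4 points of METH rats lie below those of saline rats, whereas the P2ry12 points of the groups are mixed. The marker sums overlap from 859.3 to 917.6 CPM, a range that holds only saline rat 3 and METH rats 1 and 4. The part of microglia in these levels was not tested.

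Within groups, the deviations of each receptor were compared with those of the mean log2 CPM of the 19 markers over the 8 rats, 9 relations in all, with exact permutation of the rats inside each group (two-sided, 576 arrangements). The relation with the smallest unadjusted p was that of P2ry14 (r = 0.685, exact permutation p = 0.0260, adjusted p = 0.234 over the 9, Spearman rho = 0.690, exact p = 0.0625, adjusted 0.365), and r was 0.774 without saline rats 2 and 3, the rats farthest from the median of the marker mean. P2ry12 had r = 0.622 (exact permutation p = 0.0885, adjusted p = 0.266, Spearman rho = 0.643, exact p = 0.111, adjusted 0.365) and r = 0.833 without the same rats. P2rx4 had r = 0.643 (exact permutation p = 0.174, adjusted p = 0.391, Spearman rho = 0.595, exact p = 0.167, adjusted 0.375), and r = 0.200 without them, so it rested on these rats. P2ry1 ran the other way and had the largest r in size, -0.747 (exact permutation p = 0.0851, adjusted p = 0.266, Spearman rho = -0.690, exact p = 0.122, adjusted 0.365), but r was -0.03 without these rats, so its relation rested on them. Leaving out the same rats also moved r from -0.326 to -0.741 for P2rx7, from -0.06 to 0.574 for P2rx6 and from 0.280 to 0.632 for P2ry13. It moved r from 0.179 to -0.475 for P2ry6 and from 0.215 to 0.404 for P2rx3. Without METH rat 3, r was -0.887 for P2ry1. None of the 9 relations passed the adjustment. The r values without saline rats 2 and 3 or without METH rat 3 used deviations from the mean of the whole group, which was not taken again without them.

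**Figure D4:**
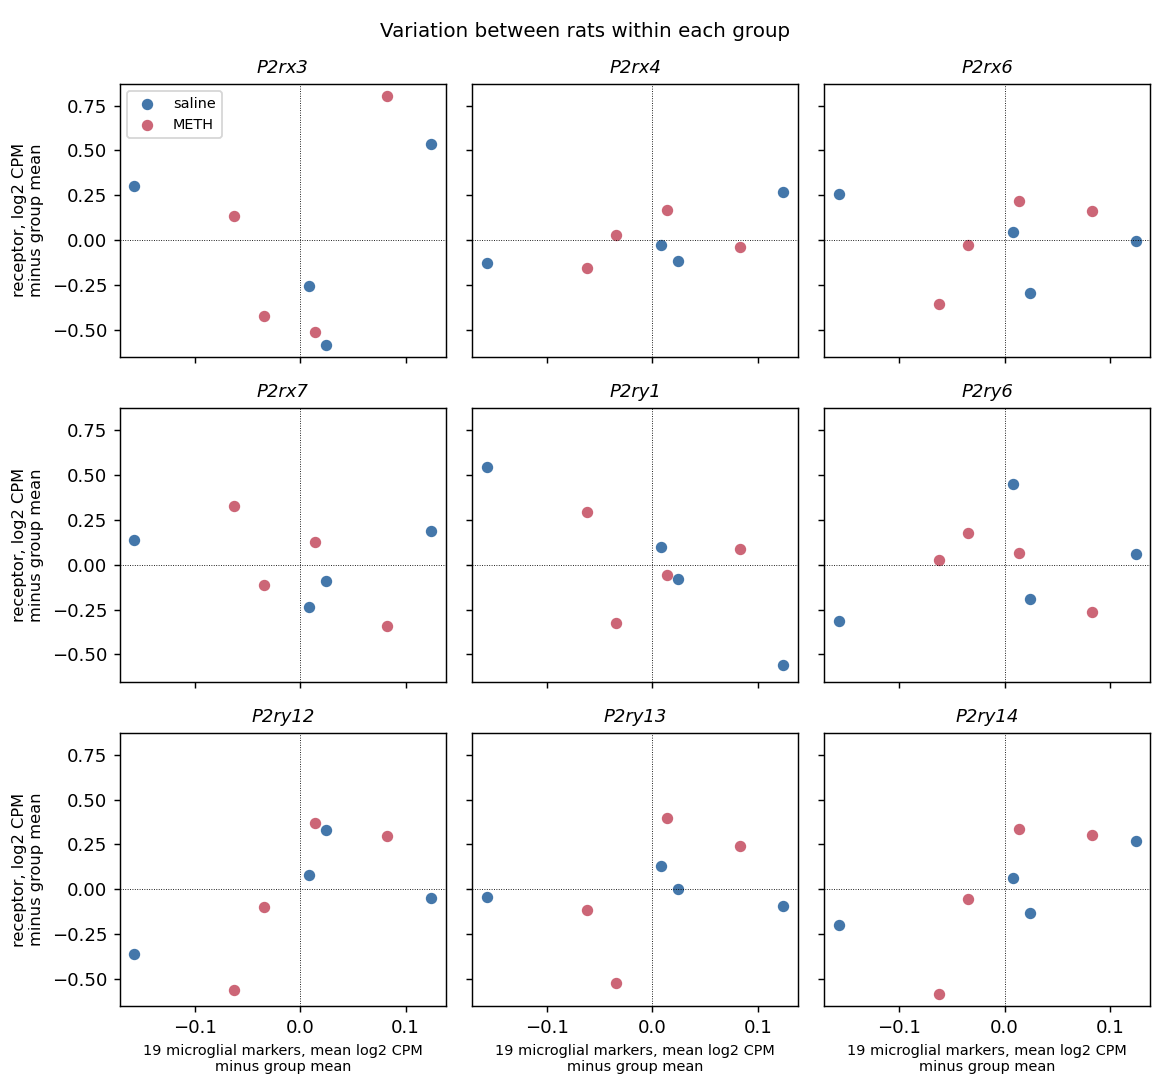
Deviation of each receptor from its group mean in log2 CPM (y axis) against the deviation of the mean log2 CPM of 19 microglial markers (x axis), with 1 point for each saline (blue) and METH (red) rat. P2rx4, P2ry12 and P2ry14 tended to be high in rats with high markers (r = 0.643, 0.622 and 0.685), and P2ry1 tended to be low (r = -0.747). None of these passed the adjustment over the 9 panels, and the relations of P2rx4 and P2ry1 rested on saline rats 2 and 3.

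Other cell types that carry P2 receptors were followed by their markers. The 5 markers of perivascular macrophages (Mrc1, Lyve1, Cd163, F13a1 and Pf4) summed to 5.76 to 11.2 CPM in saline rats and 6.42 to 14.7 CPM in METH rats, with 0 of 5 called. The platelet gene Ppbp had 0 counts in 7 rats and 1 in METH rat 1, and the neutrophil genes S100a8 and S100a9 had at most 51 counts in any rat. Blood was present in the tissue, since the hemoglobin gene Hbb was at 116.0 to 218.0 CPM in saline rats and 109.3 to 204.3 CPM in METH rats. Hbb was not called. The 7 astrocyte markers summed to 1613 to 1910 CPM in saline rats and 1643 to 1967 CPM in METH rats, with 0 of 7 called. Among them, 3 had a log2 ratio below 0. Gjb6 was higher in each METH rat (32.1 to 41.7 CPM) than in any saline rat (24.7 to 30.7 CPM), beside 3.75% of all genes tested. Its log2 ratio was 0.44 (edgeR FDR of 0.137), and that of Gfap was 0.40 (edgeR FDR of 0.457). The summed level of the 8 striatal neuron markers was above that of every saline rat in each METH rat (13820 to 17030 against 12950 to 13740 CPM), but the largest part of this sum was Ppp1r1b, at 6782 to 7591 CPM in saline rats and 7453 to 10285 CPM in METH rats. Of the 8 markers, 2 had a log2 ratio below 0. Snap25, a synaptic gene of neurons in general, went in the same direction as P2rx4 without overlap between the groups, at 1119 to 1385 CPM in saline rats and 686.0 to 1034 CPM in METH rats (log2 ratio -0.52, edgeR FDR of 0.0632), and Drd1 was at -0.03. By the edgeR test 0 of these 8 was called, and neither did the 7 oligodendrocyte or the 3 tested endothelial markers. The part of these cells in the levels of P2rx4 and the other receptors was not tested.

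Reads of overlapping genes can be shared, since the kit does not mark strand and the counting of such reads is not stated. In the order of assembly GRCr8, P2ry12, P2ry13 and P2ry14 lie inside the span of Med12l, a subunit gene of the Mediator complex, which had 96 to 204 counts per rat and a log2 ratio of -0.32 (SE 0.21). P2rx4 overlaps Camkk2, which had 1615 to 2429 counts per rat and a log2 ratio of -0.02 (SE 0.11), and the gene before it, Anapc5, was at 0.02 (SE 0.06). P2rx3 overlaps Ssrp1, with 1850 to 2589 counts and a log2 ratio of -0.07. P2rx7 is followed by Ift81 (-0.09) and P2ry1 by Rap2b (-0.29). None of these neighbours was called.

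The remaining family members were at the edge of detection except P2ry2 and Gpr17. P2ry2, the ATP and UTP receptor that lies next to P2ry6, had 41 to 125 counts and a log2 ratio of -0.37 (SE 0.26), with an edgeR FDR of 0.599. Gpr17, a P2Y-like receptor of oligodendrocyte precursors, was at 21.1 ± 4.25 CPM in the saline group and 15.2 ± 1.47 CPM in the METH group (SD, n = 4 each), with a log2 ratio of -0.47 (SE 0.15) and an edgeR FDR of 0.265. Beside it, the summed markers of these precursors (Pdgfra, Cspg4 and Olig2) were at 178.2 to 230.7 CPM in saline rats and 161.9 to 184.7 CPM in METH rats, with 0 of 3 called. P2rx1 had 6 to 20 counts per rat, P2ry4 had 1 to 18, P2rx2 had 0 to 7 and P2ry10 had 0 or 1, and these 4 genes did not pass the filter.

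The rest of the pathway was described with a list of 46 genes, of which 37 were tested. None of the 37 was called by the edgeR quasi-likelihood test or by DESeq2, while 7 of them (18.9%) had an unadjusted p below 0.05 in the edgeR test, beside 11.1% of all genes tested. DESeq2 called 1.59% of all genes tested. In the list 25 genes were lower and 12 higher in METH rats, with a median log2 ratio of -0.09.

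For ATP release, 5 genes were tested. Slc17a9, the vesicular nucleotide transporter, had 10 to 45 counts per rat and a log2 ratio of 0.56 (SE 0.43), with an edgeR FDR of 0.637. Panx1, a channel through which ATP leaves cells and which works together with P2RX7, was at 33.0 ± 6.91 CPM in the saline group and 43.8 ± 4.69 CPM in the METH group (SD, n = 4 each), with a log2 ratio of 0.41 (SE 0.13) and an edgeR FDR of 0.281. Panx2 was at 0.16, Lrrc8a at 0.10 and Gja1 at -0.09 on the same scale.

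Among the ectoenzymes, 8 of 10 were tested, 6 of them with a log2 ratio below 0. Enpp1, which cleaves ATP to AMP and pyrophosphate, had 80, 81, 83 and 96 counts in saline rats and 56, 67, 42 and 69 in METH rats, and was the single gene of the list whose groups did not overlap in CPM, beside 2.65% of all genes that were lower without overlap. Its log2 ratio was -0.51 (SE 0.22), with an edgeR FDR of 0.426. Enpp3 had the lowest value, -0.54 (SE 0.41) with an edgeR FDR of 0.635, at 11 to 40 counts per rat. Entpd1, or CD39, the main ATP- and ADP-degrading enzyme of microglia, was at -0.42 (SE 0.20), and Nt5e, or CD73, which makes adenosine from AMP, at -0.24 (SE 0.19). Neither was called.

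On the adenosine side, 6 of 8 genes were tested. Adora2a, the adenosine receptor of striatopallidal neurons, was at 970.4 ± 72.6 CPM in the saline group and 963.9 ± 98.6 CPM in the METH group (SD, n = 4 each), a log2 ratio of -0.01. Ada, which degrades adenosine, was at -0.37 (SE 0.48) with 6 to 30 counts per rat, and Adora2b at -0.10 (SE 0.17).

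Of the 17 genes that act downstream of the receptors, 16 were tested. Pycard, the adaptor of the inflammasome that P2RX7 activates, had 20 to 69 counts per rat and the lowest log2 ratio, -0.67 (SE 0.36), with an edgeR FDR of 0.494. Irf8, a transcription factor of microglia that promotes the expression of purinergic receptors, was at -0.34 (SE 0.16) with an edgeR FDR of 0.436. Irf5, which acts with it on P2rx4, was at 0.03 (SE 0.16) and Nlrp3 at 0.01 (SE 0.25). Gnaq, the G protein used by P2RY1, was at -0.31 (SE 0.15), and Kcnk13, the potassium channel that P2RY12 opens in microglia, at 0.14 (SE 0.18). Il1b had at most 7 counts in any rat and was not tested.

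**Figure D5:**
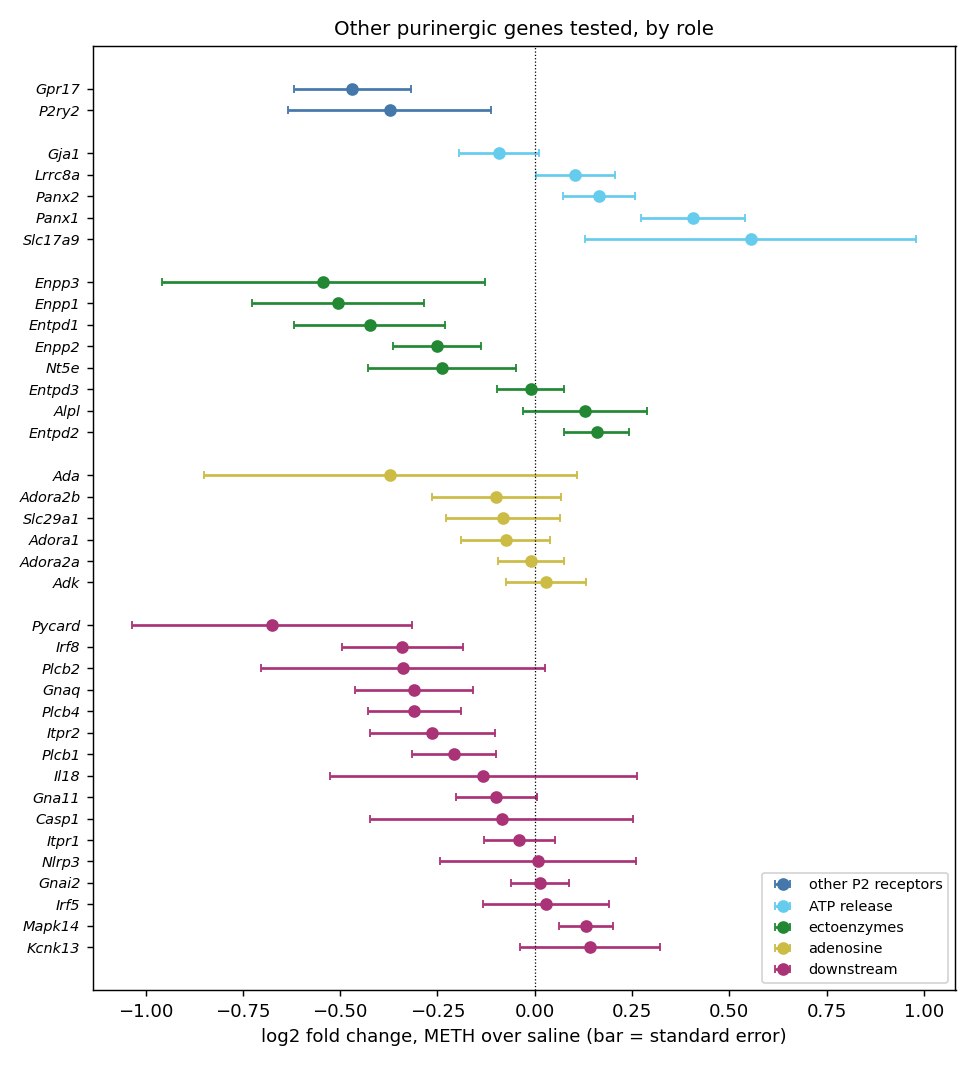
Log2 ratio of METH over saline (x axis) with its standard error for the 37 other purinergic genes tested, grouped by role and colour. None was called, and values range from Pycard (-0.67) to Slc17a9 (0.56).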

How the data were processed

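Before deposit, the authors trimmed the paired-end reads (Cutadapt 1.18), mapped them to rn6 (STAR 2.7.0e) and assigned them to genes (featureCounts, Subread 1.6.4). The values deposited are raw counts for each gene and rat. Which annotation was used, whether strand was considered and how multi-mapping reads were treated is not given in the sources used here. Analyses ran in R 4.3.3. Genes were kept by filterByExpr (minimum count 10) and scaled by TMM (factors 0.956 to 1.02), and the groups were compared with edgeR 4.0.16 (quasi-likelihood F-test, Benjamini-Hochberg adjustment) over all genes kept. Calls needed an FDR under 0.05 and a mean log2 CPM over 1. The SE is the absolute log2 ratio divided by the square root of F, and a prior count of 2 went into log2 CPM.

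The members, the gene lists and the motifs were chosen with earlier results of these data known. Genes were named by role: the members, the list genes called, the 2 largest log2 ratios per role, neighbouring genes and the 2 genes most like each member. Other list genes were named after their values were seen. Of the genes most like a member, 1 is not reported here. All pairs of rats within a group differed by more than sampling noise in their counts (chi-square over its degrees of freedom, 10.4 to 28.6). Detection floors cover counting error only. On counts drawn for 12014 genes, 200 of them changed by a log2 ratio of 1, edgeR called 166 of the 200 (83.0%) and 8 unchanged genes. This change was larger than that of any member or other purinergic gene tested, and the recovery of smaller changes was not measured. Levels were not compared between genes, because transcript lengths were not used here. Gene order and promoters come from RefSeq on GRCr8, where all 10 members matched by symbol, and rn6 coordinates were not used. Alternatives were other scalings, DESeq2 1.42.0, other filters and limits, each rat left out, and the rat number as a block.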

Additional observations from a re-analysis of the deposited data

How the results depend on the processing

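The genes called moved from 62 to 191 with DESeq2 (141 higher, 50 lower), and without a filter on low counts 13 genes were called lower. A replicate block on the rat number left 37 calls (35 higher, 2 lower), of which 1 was a microglial marker and none was P2rx4. Same-numbered rats are different animals, and their deviations correlated between -0.201 and 0.0355. Rat 4 alone correlated best with its own number. The cause of these differences was not tested. With each rat left out the calls ranged from 37 (without saline rat 2) to 70 (without METH rat 1), with 35 to 66 of them higher, 2 to 9 lower and 1 to 2 of them microglial markers. The lower genes were 2 without saline rat 2 and 4 without saline rat 4, METH rat 1 or METH rat 3. DESeq2 called 3 microglial markers, Gpr34 being the third. The other purinergic genes gave 0 calls under every alternative run. Adora2b lay between -0.177 and 0.0340 with each rat left out and changed sign without saline rat 1. Over the scalings, tests and filters run, P2rx4 lay between -0.68 and -0.64. A prior count of 0.5 moved the difference of mean log2 CPM of every member tested by less than its spread between rats. Scaling by library total moved the median of all genes from -0.01 to -0.04. Depth limits P2rx3, P2rx5 and P2ry14, and P2rx5 was fitted only without the filter, where no fold is given.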
